A study of Mus musculus with 9 samples.

Results

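The 10 genes studied here belong to antigen presentation by class II molecules of the major histocompatibility complex (MHC), measured in whole lungs of mice challenged with ovalbumin. They were H2-Aa, H2-Ab1, H2-Eb1, H2-DMa, H2-DMb1, H2-DMb2, H2-Oa, H2-Ob, Cd74 and the class II transactivator, listed in the table as Ciita (earlier C2ta). Members were all probes that carried one of these symbols, whatever their values, which gave 14 probes of 10 genes, among 39464 probes and 25762 named genes in all. H2-Aa, H2-Ab1, H2-DMa and H2-DMb2 had 2 probes each.

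The mice were BALB/c and about 12 weeks old, and all samples were total RNA of lung tissue. One group had been treated with PBS (saline, 4 arrays), and the other had been challenged with OVA (ovalbumin, an egg white protein used as an allergen to inflame the airways of mice, 5 arrays). Each array carried 2 dyes. By the labels, channel 1 (Cy3) held a pool of the PBS-treated lungs on all 9 arrays and channel 2 (Cy5) held a single lung. Whether the single lungs were from separate mice is not stated, and p-values here measure only the spread between these samples. The number of arrays limits the precision.

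Class II molecules present peptides of proteins taken up from outside the cell to CD4+ helper T cells. An alpha and a beta chain form the groove (H2-Aa with H2-Ab1, H2-Ea with H2-Eb1). The invariant chain Cd74 fills the groove until the H2-DM heterodimer exchanges its remnant for a peptide, and the H2-O heterodimer restrains H2-DM. Ciita is a coactivator known to switch on class II genes. It binds no DNA itself and acts through factors bound to short promoter elements, the X box and the Y box. In lung, dendritic cells, macrophages, B cells and alveolar type 2 cells are known to carry class II.

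Promoter letters are shown for 6 members with a window in RefSeq (build GRCm38.p6, from C57BL/6J mice, whose class II alleles differ from those of BALB/c), because these elements are what the class II genes are known to share. Each window ran from 250 bases before to 50 bases after the gene's start. The letters GCAAC (core of the X box) and ATTGG (core of the Y box, CCAAT on the other strand) were searched on both strands, alone and as GCAAC followed by ATTGG after 24 to 32 bases. The first 4 stretches hold both cores at that spacing and the last 2 hold the Y core, with capitals marking the cores. All lie before the start, on chromosome 17.
H2-Aa (chr17:34287857-34287914, minus strand): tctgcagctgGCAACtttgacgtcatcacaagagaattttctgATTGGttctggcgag
H2-Eb1 (chr17:34305766-34305822, plus strand): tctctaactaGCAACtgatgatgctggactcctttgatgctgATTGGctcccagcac
H2-Oa (chr17:34092293-34092350, plus strand): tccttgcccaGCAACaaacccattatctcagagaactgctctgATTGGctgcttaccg
H2-Ob (chr17:34238808-34238862, plus strand): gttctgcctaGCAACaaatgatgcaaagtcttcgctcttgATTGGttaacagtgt
H2-DMb1 (chr17:34153087-34153144, plus strand): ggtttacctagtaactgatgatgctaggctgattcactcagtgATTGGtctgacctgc
H2-DMb2 (chr17:34145116-34145173, plus strand): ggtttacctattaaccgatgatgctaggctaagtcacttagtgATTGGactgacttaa

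Of the 7 members with a window, all 7 held the Y core in at least 1 window and 4 held both cores at the stated spacing. Among all 32851 windows of 300 bases, 37.4% held the Y core, 35.2% the X core and 0.408% both at that spacing. Counted by gene, as the members are, 11096 of 27025 genes held the Y core in at least 1 window. The X core was held by 10425 genes and both at that spacing by 123. The gap between the cores was 28 bases in H2-Aa and H2-Oa, 27 in H2-Eb1 and 25 in H2-Ob. The stretches of H2-DMb1 and H2-DMb2, near-identical beta chains of H2-DM, had the same letter at 49 of 58 positions, and probes for these 2 genes may pick up both transcripts. H2-DMa had 2 windows, of which 1 held the Y core, 1 the X core and none both at that spacing, and its letters are not shown. H2-Ab1, Cd74 and Ciita are named only. In the RefSeq order of chromosome 17, the members run H2-Oa, H2-DMa, H2-DMb2, H2-DMb1, H2-Ob, H2-Ab1, H2-Aa, H2-Eb1, followed by H2-Eb2 and H2-Ea.

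The values are intensities on a scale set by the authors, which ran from 0.00055 to 70.15, and those of the members are given to 2 decimals. The response of a lung was taken as the log2 ratio of channel 2 over channel 1, and the difference is the OVA mean minus the PBS mean of this ratio. The single channels did not follow the labels. Clca1 (listed as Clca3), a goblet cell protein known to rise strongly in allergic lungs, read 33.6 (mean) in channel 1 and 33.3 in channel 2 across PBS arrays. Across OVA arrays its channel means were 36.4 (channel 2) against 0.362 (channel 1). Channel 1, by the labels the same pool on all arrays, gave 8319 probes that differed between OVA and PBS arrays at an adjusted p under 0.05 (limma, Benjamini-Hochberg). Channel 2, by the labels the lungs compared, gave 2 probes, or 1455 at an unadjusted p under 0.05. "Higher" and "lower" below are therefore directions of the deposited ratio. On every OVA array, Clca1 and the bright probes of H2-Ab1, Cd74, H2-DMa, H2-Aa and Ciita read higher in channel 2 than in channel 1. Both channels of the PBS arrays read Clca1 near its level in channel 2 of the OVA arrays, unlike the labels. Which lungs held more class II RNA was not tested, since it turns on which RNA lay in each channel of both groups.

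As to the labelled tissue, Foxj1 of ciliated cells lay between 5.12 and 7.40 and Cdh5 of endothelium between 0.18 and 0.34 over all channels. Their ratios differed between the groups, with log2 differences of 0.41 for Foxj1 and -0.45 for Cdh5 (limma adjusted p = 5.91e-04 and 0.00222). The surfactant genes Sftpc and Sftpb were blank on all 4 PBS arrays and on 4 of 5 OVA arrays, and had intensities between 31.7 and 41.1 on the other. Blank cells lay mostly on bright probes: the 138 probes with at least 1 blank had a median mean intensity of 37.0, against 0.139 over all probes.

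By the brightest probe of each gene, the ratio of H2-Aa, H2-Ab1, Cd74, the H2-DM chains and Ciita was 1.54 to 2.52 times higher on the OVA arrays than on the PBS arrays. H2-Oa and H2-Ob, each read by 1 dim probe (mean intensity 0.164 and 0.129), did not pass the test. The dimmer probes of H2-Aa and H2-DMb2 did not pass either, and that of H2-DMa was higher by only 1.125-fold. The dim H2-DMb1 probe passed. Whether the result of H2-Oa and H2-Ob belongs to the genes or to dim probes cannot be told apart here. Of 13 member probes tested, 9 were higher, none was lower and 4 did not pass (limma, adjusted p under 0.05 over all probes). Over all 39413 probes tested, 15% were higher and 18.9% lower, 33.9% in all. The median log2 difference was 0.76 over the 13 member probes and -0.0052 over all probes. On 8 of the 13, every OVA ratio lay above every PBS ratio, which held for 12.9% of all probes. By the authors' deposited p-values, channel 2 was above channel 1 at p under 0.05 on all 5 OVA arrays for 7 of the 14 member probes, against 4.16% of all probes with 5 values. By single channels, 8 member probes were lower in channel 1 of the OVA arrays (9.44% of all probes) and 0 differed in channel 2 (0.00507% of all probes; 0 member probes also at an unadjusted p under 0.05). In RNA of whole tissue, a different number of cells that carry class II and a different amount of class II RNA per cell (fewer cells or less RNA per cell, in whichever lungs are lower) cannot be told apart.

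**Figure D1:**
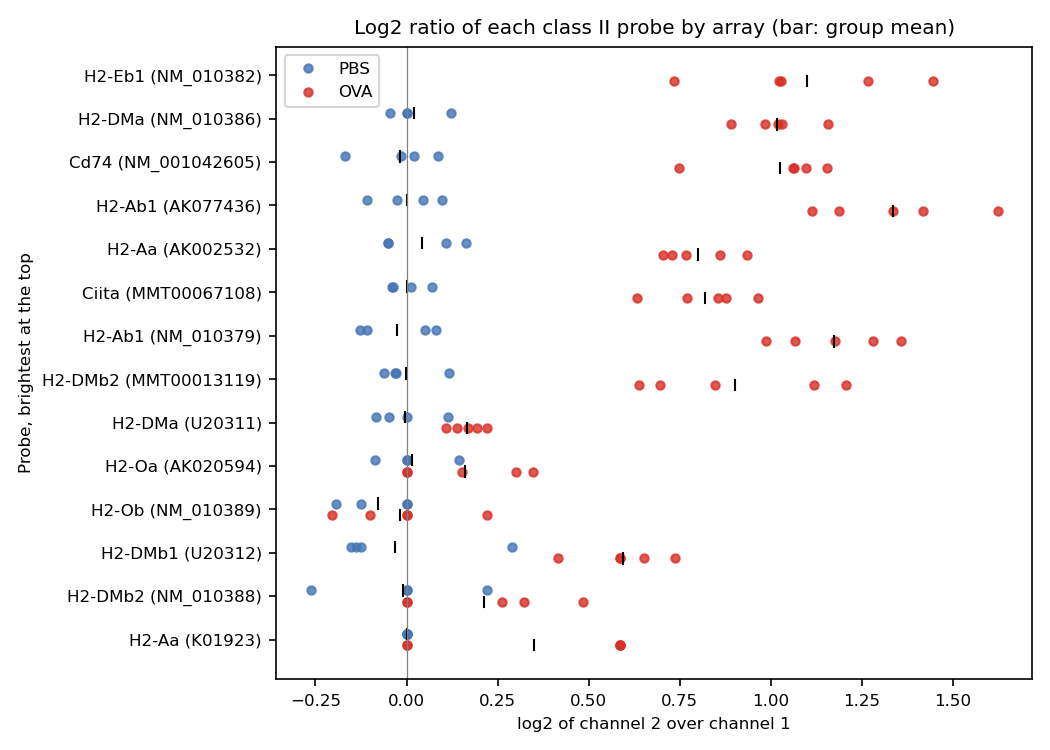
Log2 ratio of channel 2 over channel 1 (x axis) for the 14 class II probes (rows, brightest at the top), with a point for each PBS array (4) and each OVA array (5) and a bar at each group mean. The bright probes of H2-Ab1, Cd74, H2-DMa, H2-Aa, Ciita and H2-DMb2 have all OVA points above all PBS points, H2-Eb1 has no PBS point, and the groups of H2-Oa and H2-Ob overlap.

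The classical chains were read by 5 probes. For the bright H2-Ab1 probe (AK077436), channel 1 of the PBS arrays read 1.75, 1.93, 2.04 and 1.85 and channel 2 read 1.72, 1.79, 2.18 and 1.91. On the OVA arrays, channel 1 read 0.67, 0.63, 0.92, 0.74 and 0.86 and channel 2 read 1.79, 1.94, 1.99, 1.87 and 1.96. Channel 1 of every OVA array lay below all other readings of this probe, and channel 2 of the OVA arrays lay within the range of the PBS arrays. The log2 ratio averaged 1.34 ± 0.20 (SD, n = 5) on the OVA and 0.0021 ± 0.089 (SD, n = 4) on the PBS arrays. The difference was 2.52-fold (95% interval 2.14 to 2.97; log2 difference 1.33 ± 0.10 SE, limma adjusted p = 2.82e-05), the largest among the members tested. The other H2-Ab1 probe (NM_010379) gave 2.30-fold (log2 difference 1.20 ± 0.085 SE, limma adjusted p = 1.81e-05).

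For H2-Aa (AK002532), the alpha partner of H2-Ab1, channel 1 of the PBS arrays read 1.13, 1.12, 1.15 and 1.18, and channel 2 read 1.09, 1.08, 1.24 and 1.32. On the OVA arrays channel 1 fell between 0.57 and 0.78 and channel 2 between 1.09 and 1.27. Again only channel 1 of the OVA arrays stood apart. The ratio was 1.69-fold higher on the OVA arrays (95% interval 1.52 to 1.88; log2 difference 0.76 ± 0.066 SE, limma adjusted p = 5.43e-05). The second H2-Aa probe (K01923) read 0.02 or 0.03 everywhere, so that a step of the last decimal moved its ratio from 1 to 1.5. Its log2 difference was 0.35 ± 0.15 SE (limma adjusted p = 0.122; 0.0476 without OVA replicate 1 and 0.0495 without OVA replicate 5).

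H2-Eb1 (NM_010382), the beta chain of the second classical molecule, was blank on all 4 PBS arrays and could not be compared between the groups. On the OVA arrays channel 1 read 26.12, 21.59, 26.96, 24.56 and 27.95, and channel 2 read 53.29, 51.95, 44.85, 66.87 and 56.84. Channel 2 was higher on each of the 5 arrays, with a ratio of 2.14 on average (log2 ratio 1.1 ± 0.11 SE, n = 5; limma over the OVA arrays alone, adjusted p = 0.00175). In that fit 17% of all probes were above 0 at an adjusted p under 0.05. Such readings lie near the upper end of the deposited scale, and the ratio is not exact. H2-Ea (NM_010381), its alpha partner and a member of the wider pathway list, had a log2 difference of 0.95 ± 0.10 SE (limma adjusted p = 1.79e-04).

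Cd74, the invariant chain, read 2.13, 2.06, 2.16 and 2.10 in channel 1 and 2.11, 2.09, 1.92 and 2.23 in channel 2 of the PBS arrays. On the OVA arrays channel 2 read 2.32, 1.87, 1.96, 1.82 and 2.18 and channel 1 read 1.38, 0.84, 0.94, 0.87 and 1.02. OVA replicate 1 had the highest reading of the OVA arrays in both channels. The ratio was 2.06-fold higher on the OVA arrays (95% interval 1.79 to 2.37; log2 difference 1.04 ± 0.088 SE, limma adjusted p = 4.73e-05).

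**Figure D2:**
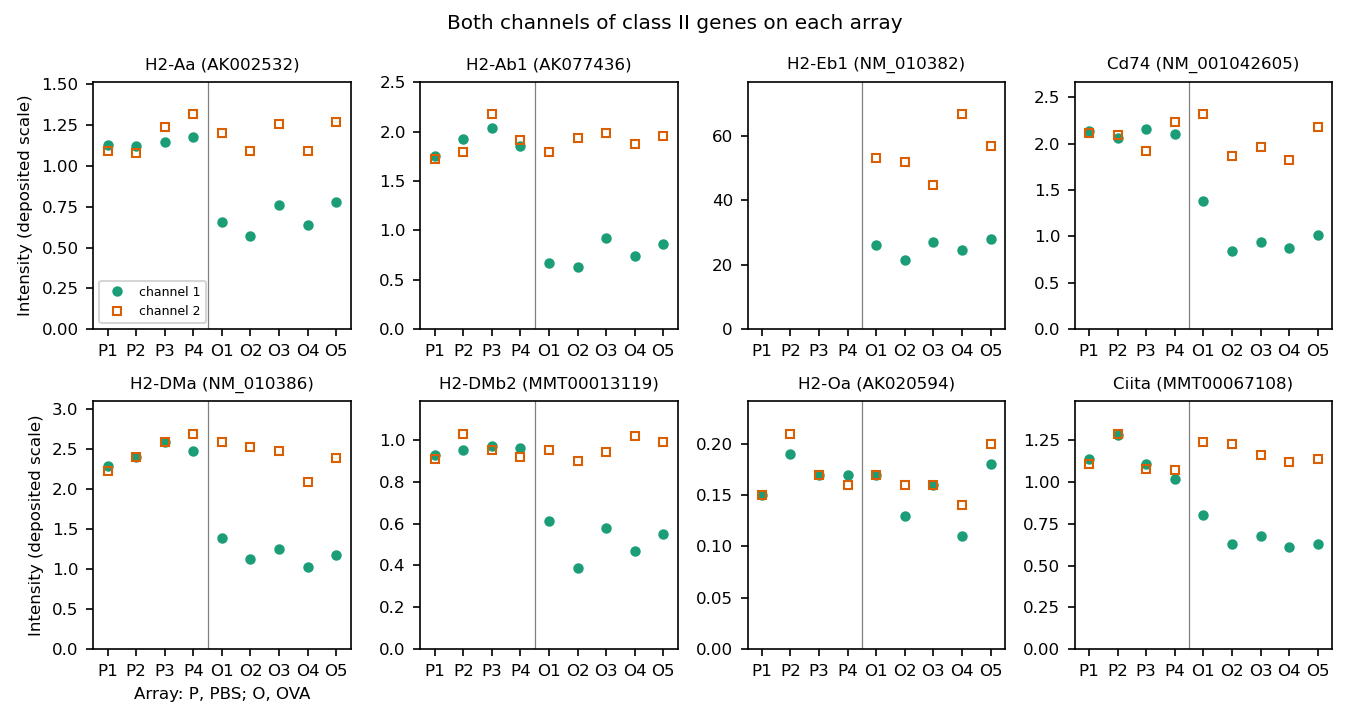
Deposited intensity (y axis, from 0, with its own scale in each panel) of 8 class II probes on each of the 9 arrays (x axis; P1 to P4 for PBS, O1 to O5 for OVA), with filled circles for channel 1 and open squares for channel 2. Both channels of the PBS arrays and channel 2 of the OVA arrays lie together, for Cd74 between 1.82 and 2.32, while channel 1 of the OVA arrays lies lower, for Cd74 between 0.84 and 1.38. H2-Oa shows no such gap, and H2-Eb1 has no value on the PBS arrays.

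Among the peptide editors, H2-DMa (NM_010386) had the smallest adjusted p of the members. On the PBS arrays channel 1 read 2.29, 2.40, 2.58 and 2.47 and channel 2 read 2.22, 2.40, 2.58 and 2.69. On the OVA arrays channel 1 read 1.39, 1.13, 1.25, 1.03 and 1.17, against 2.58, 2.52, 2.47, 2.09 and 2.39 in channel 2. The ratio was 2.00-fold higher (95% interval 1.83 to 2.18; log2 difference 1.00 ± 0.056 SE, limma adjusted p = 5.00e-06). A second H2-DMa probe (U20311), with intensities from 0.23 to 0.35, had a log2 difference of 0.17 ± 0.044 SE (limma adjusted p = 0.0175). Its groups overlapped, and leaving out PBS replicate 1 ended the call (limma adjusted p = 0.0523).

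The beta chains of H2-DM went the same way. For H2-DMb2 (MMT00013119) channel 1 fell between 0.39 and 0.61 on the OVA arrays and between 0.93 and 0.97 on the PBS arrays. Its ratio was 1.87-fold higher (log2 difference 0.90 ± 0.12 SE, limma adjusted p = 6.90e-04). H2-DMb1 (U20312) was dim, from 0.06 to 0.12 over all channels, and its ratio was 1.54-fold higher (log2 difference 0.63 ± 0.10 SE, limma adjusted p = 0.0020). Rounding alone can move single log2 ratios of that probe by up to 0.21 in either direction. The second H2-DMb2 probe (NM_010388), from 0.04 to 0.07, did not pass (log2 difference 0.22 ± 0.13 SE, limma adjusted p = 0.244).

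Readings of the H2-O chains, which restrain H2-DM and are known mainly from B cells and some dendritic cells, were close together in both channels. For H2-Oa (AK020594) channel 1 of the OVA arrays read 0.17, 0.13, 0.16, 0.11 and 0.18 and channel 2 read 0.17, 0.16, 0.16, 0.14 and 0.20. The PBS arrays lay between 0.15 and 0.19 in channel 1 and between 0.15 and 0.21 in channel 2. The groups overlapped, and the difference was 1.11-fold (95% interval 0.96 to 1.27; limma adjusted p = 0.265). H2-Ob (NM_010389) lay between 0.10 and 0.16 on all arrays, and the difference was 1.04-fold (95% interval 0.91 to 1.20; limma adjusted p = 0.621). Rounding can move single log2 ratios by up to 0.12 for H2-Oa and 0.14 for H2-Ob. Both promoters hold the X and Y cores shown above, as do those of H2-Aa and H2-Eb1.

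Ciita (MMT00067108), a coactivator of class II genes, read 1.14, 1.28, 1.11 and 1.02 in channel 1 of the PBS arrays. Channel 2 of these arrays read 1.11, 1.29, 1.08 and 1.07. On the OVA arrays channel 2 read 1.24, 1.23, 1.16, 1.12 and 1.14, and channel 1 read 0.80, 0.63, 0.68, 0.61 and 0.63. No channel 1 reading of an OVA array reached the lowest reading of the PBS arrays. The ratio was 1.77-fold higher (95% interval 1.59 to 1.96; log2 difference 0.82 ± 0.065 SE, limma adjusted p = 3.24e-05).

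In 2 of 5 pairs of genes, 1 probe a gene, the ratio of 1 probe differed between the groups by more than that of the other. This compares probes and may not carry over to the chains. In each pair, the difference of the 2 log2 ratios on each array was compared between groups with an exact two-sided permutation test, whose smallest possible p is 0.0159, adjusted over the 5 pairs. H2-Aa lay below H2-Ab1 by 0.54 ± 0.11 (SD, n = 5) on the OVA arrays and above it by 0.039 ± 0.061 (SD, n = 4) on the PBS arrays (exact p = 0.0159, adjusted p = 0.0397). H2-DMa exceeded H2-DMb1 by 0.42 ± 0.17 (SD, n = 5) on the OVA and by 0.051 ± 0.15 (SD, n = 4) on the PBS arrays (exact p = 0.0159, adjusted p = 0.0397), where the dim H2-DMb1 probe is open to rounding. The adjusted p was 0.317 for H2-DMb1 against H2-DMb2, 0.508 for H2-Oa against H2-Ob and 0.132 for Cd74 against H2-Aa (exact permutation tests, shifts of -0.28, 0.083 and 0.29). Both calls are lost without any 1 array other than OVA replicate 1, as fewer arrays raise the smallest possible exact p to 0.0286 or 0.0357. Without OVA replicate 1 they stay, and Cd74 against H2-Aa passes too (exact permutation, adjusted p = 0.0476 in all 3).

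Probes of 1 gene also differed from each other. Between the brighter and the dimmer probe, the OVA minus PBS difference was larger in the brighter by 0.83 for H2-DMa and by 0.13 for H2-Ab1, on the log2 scale. These pairs were chosen after the values were seen, so they are given as descriptions and no test result is reported for them. The dimmer probes of H2-Aa and H2-DMb2 read 0.02 to 0.03 and 0.04 to 0.07, where rounding sets much of the ratio.

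The 5 OVA arrays did not rank alike for all members. Log2 ratios of Cd74, Ciita, H2-DMa and bright H2-DMb2 were lowest on OVA replicate 1 (0.75, 0.63, 0.89 and 0.64) and highest on OVA replicate 2 (1.16, 0.96, 1.16 and 1.21). For H2-Ab1 (AK077436) OVA replicate 1 was second highest, at 1.42, and OVA replicate 3 was lowest, at 1.11. H2-Aa had 0.86 on OVA replicate 1 and its lowest ratio, 0.70, on OVA replicate 5. H2-Eb1 was lowest on OVA replicate 3, at 0.73, and highest on OVA replicate 4, at 1.44. These orders are descriptions of 5 arrays.

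Likeness to the members was measured as Pearson's r, over the 9 arrays, between each gene's deviations from its group means and the mean deviation of the 13 member probes with a value on every array. Of 25080 genes searched, the 5 most alike were Atf3, a stress-induced transcription factor (r = 0.974), 9230110I02Rik (0.964), B4galt3, a galactosyltransferase (0.954), Mgl2, a lectin of macrophages and dendritic cells (0.952), and B3galt5, another galactosyltransferase (0.949). The arrays are the same for all genes, and with 9 arrays and this many genes such values are descriptions. B3galt5 and 9230110I02Rik were dim, with mean intensities of 0.012 and 0.106 against a median of 0.139 over all probes. The 13 member probes also include dim ones, whose ratios are open to rounding. Atf3 and Mgl2 also had a higher ratio on the OVA arrays (log2 differences of 1.48 and 1.27, limma adjusted p = 3.63e-06 and 1.05e-05), and 9230110I02Rik had a lower one (-0.75, limma adjusted p = 7.11e-05). B4galt3 and B3galt5 did not pass (limma adjusted p = 0.959 and 0.164).

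The wider class II pathway was followed in a list of 26 genes, of which 24 had a probe. Each gene was represented by its brightest probe. Of these, 18 were higher, none was lower and 6 did not pass (limma, adjusted p under 0.05), against 16.9% higher and 22.3% lower among all 25721 genes. The median log2 difference was 0.42, against -0.017 over all genes. The proteases Ctss and Lgmn had the largest differences of the list, and the other proteases had smaller ones. Ctss, cathepsin S, which trims the invariant chain, had a log2 difference of 1.86 ± 0.079 SE (values on 2 PBS arrays, limma adjusted p = 1.30e-05). Ctss intensities on the OVA arrays had means of 47.3 (channel 2) and 13.2 (channel 1), the former near the upper end of the scale. Lgmn, an asparagine-specific protease, was at 1.54 ± 0.066 SE, and Ifi30, the thiol reductase of endosomes, at 1.22 ± 0.024 SE (limma adjusted p = 1.38e-06 and 9.72e-08). Ctsl, cathepsin L, was at 0.52 ± 0.045 SE (limma adjusted p = 5.33e-05), and its dimmer probe at -0.014 (limma adjusted p = 0.703). Ctsd and Ctsb, cathepsins D and B, were higher by 0.42 and 0.37 (limma adjusted p = 1.24e-04 and 2.31e-04).

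Lgmn fell between 3.56 and 4.59 in channel 1 of the OVA arrays and between 10.8 and 14.2 in all other readings. Ifi30 lay between 0.96 and 1.19 in channel 1 of the OVA arrays and between 2.21 and 2.73 elsewhere. Lgmn and Ifi30 were thus low in channel 1 of the OVA arrays alone, as were H2-Ab1, H2-Aa, Cd74, H2-DMa and Ciita. H2-Eb2, a class II beta chain gene whose RefSeq window also holds both cores, was at 0.31 ± 0.045 SE (limma adjusted p = 8.83e-04).

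Among factors that bind class II promoters, Rfx5, the DNA-binding subunit of the X box complex, was higher (log2 difference 0.58 ± 0.075 SE, limma adjusted p = 4.80e-04). Its partners Rfxap and Rfxank did not pass (log2 differences of -0.040 and 0.0059, limma adjusted p = 0.803 and 0.963), nor did Creb1, which binds beside the X box (-0.086, adjusted p = 0.316). Of the Y box subunits, Nfyb and Nfyc were higher by 0.19 and 0.14, and Nfya did not pass at 0.050 (limma adjusted p = 0.0363, 0.00317 and 0.432). The groups of Nfyb overlapped.

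Ifng, interferon gamma, the main inducer of Ciita outside professional antigen-presenting cells, had a log2 difference of 1.26 ± 0.14 SE (limma adjusted p = 2.27e-04). Its intensities were from 0.08 to 0.11 in channel 1 of the OVA arrays and from 0.19 to 0.28 in the other readings. Its receptor chain Ifngr1 was higher by 0.44 ± 0.026 SE (limma adjusted p = 7.37e-06). Ifngr2 did not pass (-0.14, limma adjusted p = 0.0579), though every OVA ratio lay below every PBS ratio. Irf1 did not pass either (0.17, limma adjusted p = 0.0828). The myeloid factors Spi1 (listed as Sfpi1) and Irf8 were higher by 0.81 ± 0.066 SE and 0.60 ± 0.059 SE (limma adjusted p = 3.79e-05 and 1.13e-04). The dimmer Spi1 probe was at 0.25 and did not pass (limma adjusted p = 0.0962).

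**Figure D3:**
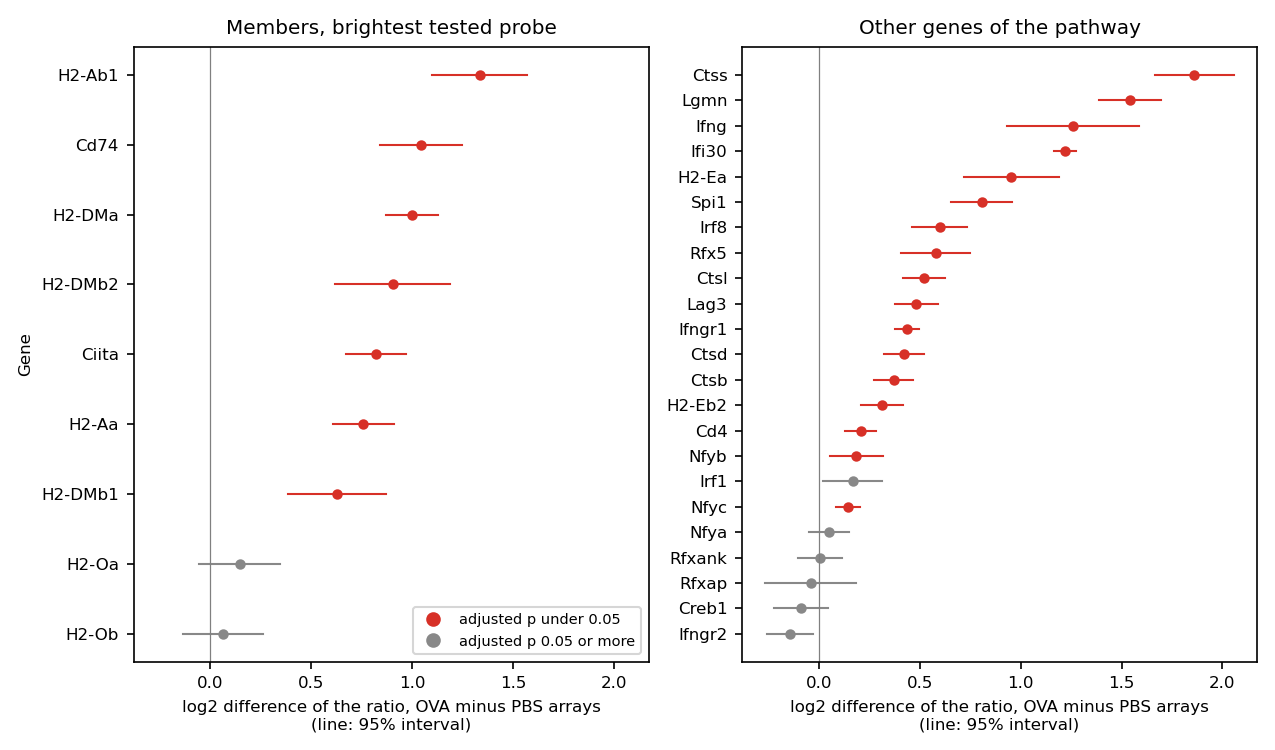
Log2 difference of the ratio between OVA and PBS arrays (x axis, points) with its 95% interval (lines) for the 9 members that could be tested (left, brightest probe) and for 23 other genes of the pathway (right), with red for an adjusted p under 0.05. Members run from 0.063 for H2-Ob to 1.33 for H2-Ab1, and pathway genes from -0.14 for Ifngr2 to 1.86 for Ctss.

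Most marker genes of monocytes and macrophages and of dendritic cells were higher on the OVA arrays, as were most members. Over all 25721 genes, 1 probe a gene, 16.9% were higher and 22.3% lower. Most B cell markers did not pass, and 2 alveolar type 2 markers were lower. The part of these cell types in the members' differences was not tested. Of 7 monocyte and macrophage genes tested, 6 were higher, with a median log2 difference of 1.505. Marco did not pass (-0.25, limma adjusted p = 0.518). C1qb, a complement chain made by macrophages, was at 2.14 ± 0.071 SE and Mrc1, the mannose receptor, at 1.96 ± 0.066 SE (limma adjusted p = 4.48e-07 and 4.50e-07). The summed intensity of the 7 genes lay between 7.63 and 8.84 in channel 1 of the OVA arrays and between 21.25 and 23.81 in the other readings. Of 10 dendritic cell genes 7 were higher and 1, Zbtb46, was lower, with a median of 0.71. Clec9a and Ccr7 did not pass (-0.12 and -0.031, limma adjusted p = 0.152 and 0.885). The call of Zbtb46 (-0.28, limma adjusted p = 0.0237) was lost when any 1 of PBS replicates 2, 3 and 4 and OVA replicates 1 and 2 was left out, and its other 2 probes were at 0.11 and -0.077 and did not pass. Batf3, a factor of cross-presenting dendritic cells, and Itgax, the integrin CD11c, were both at 2.74 (limma adjusted p = 1.45e-07 and 5.11e-08). The summed intensity of all 10 dendritic cell genes, of which Itgax was by far the brightest (mean intensity 14.4), lay between 7.57 and 8.44 in channel 1 of the OVA arrays and between 27.5 and 28.8 elsewhere.

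Of 10 B cell genes, 2 were higher and 8 did not pass, with a median log2 difference of 0.059. That count is near the share over all genes, of which 16.9% were higher. Fcer2a, the low-affinity IgE receptor, was at 0.60 ± 0.098 SE and Cd22, an inhibitory receptor, at 0.39 ± 0.11 SE (limma adjusted p = 0.00179 and 0.0297). The call of Cd22 was lost when any 1 of PBS replicates 1, 3 and 4 and OVA replicates 2 and 4 was left out (limma adjusted p from 0.0557 to 0.0831). The B cell-defining genes Cd79a, Ms4a1 and Pax5 did not pass (log2 differences of -0.15, 0.12 and -0.0055, limma adjusted p from 0.124 to 0.906). Tnfrsf13c, a B cell survival receptor, did not pass by its brighter probe (0.36, adjusted p = 0.188), and its dimmer probe was at 1.32 (limma adjusted p = 9.13e-06). The summed B cell intensity lay between 5.11 and 7.58 in channel 1 of the OVA arrays and between 6.86 and 7.60 elsewhere. Of 8 T cell genes 5 were higher, with a median of 0.34. Cd3d, Cd3e and Cd8a did not pass (log2 differences of 0.22, 0.020 and 0.079, limma adjusted p = 0.179, 0.691 and 0.436). Thy1 was at 0.75 ± 0.053 SE (limma adjusted p = 1.73e-05), and its other 2 probes were at 0.45 and -0.056.

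Of 8 alveolar type 2 genes, 7 had a probe and 3 could be tested. The bright probes of the surfactant genes Sftpc, Sftpb and Sftpd had no value on the PBS arrays, and that of Slc34a2, a phosphate transporter, had too few values. Napsa, an aspartic protease of surfactant processing, and Abca3, a lipid transporter, were lower by 0.37 and 0.36 on the log2 scale (limma adjusted p = 0.00257 and 0.00976). The third, Lamp3, did not pass (0.21, adjusted p = 0.0715). Brighter members of this list are missing from the count, and 22.3% of all genes were lower.

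**Figure D4:**
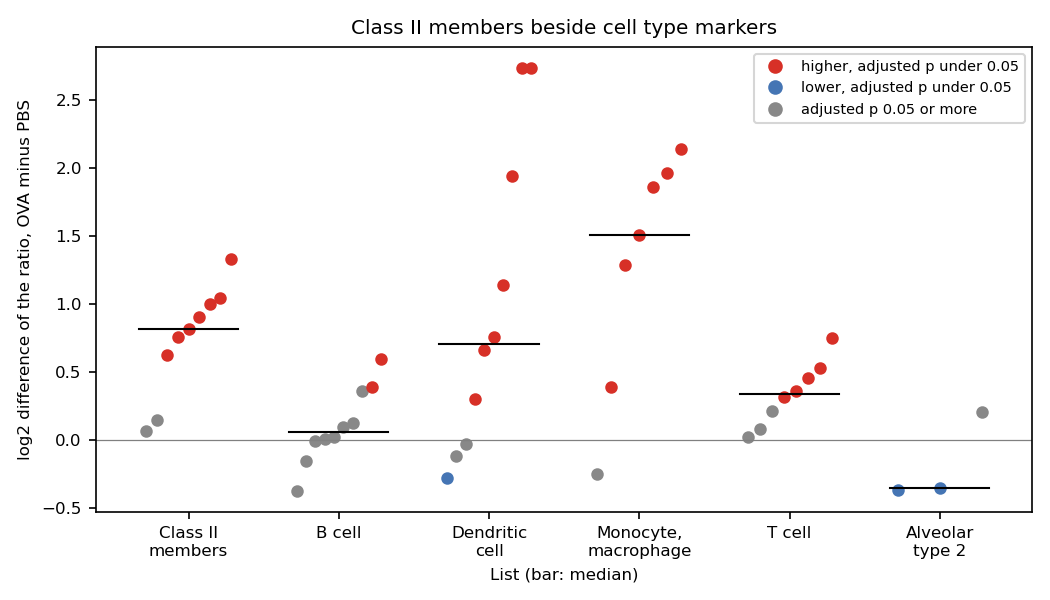
Log2 difference of the ratio between OVA and PBS arrays (y axis) for the 9 tested class II members and for marker genes of 5 cell types (x axis), a point per gene in order of size and a bar at each median. The medians are 0.82 for the members, 0.059 for B cell, 0.71 for dendritic cell, 1.505 for monocyte and macrophage, 0.34 for T cell and -0.36 for alveolar type 2 genes.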

How the data were processed

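Total RNA of BALB/c lungs was hybridised to 9 arrays of 2 colours, 4 of PBS and 5 of OVA. The deposited intensities of both channels came from the authors' scans; the submitters' processing notes name Agilent Feature Extraction 8.5.1.1. How background was corrected and values were scaled is not given in the sources used here. Each deposited p-value, per probe and array, compares the channels, by an error model not given here. The log10 ratios deposited by the authors matched log10 of channel 2 over channel 1, with 99% of differences below 0.00044.

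Log2 ratios were computed from the intensities with no further normalization. All 39413 probes with at least 2 values in each group were fitted with limma 3.58.1 in R 4.3.3 (OVA against PBS, no covariate, two-sided), and p-values were adjusted over them by Benjamini-Hochberg. Called means an adjusted p under 0.05. Pairs of genes used exact permutation over the arrays. Of the probes, 22966 had a current symbol, 3130 an older one updated through RefSeq, 17 were named by accession, 4009 kept the file's name and 9342 had none.

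The members and lists were chosen with earlier results of these data known, and no set test was run. Named were all members, pathway genes (some results are not reported here), up to 3 genes of largest change in each marker list and the 5 genes most alike. Other genes (Clca1, Zbtb46, Marco, Clec9a, Ccr7, Sftpc, Sftpb, Sftpd, Slc34a2, Cd79a) were named after their values were seen. So were Ms4a1, Pax5, Tnfrsf13c, Cd3d, Cd3e, Cd8a, Lamp3, Foxj1 and Cdh5. On simulated data of 39413 probes, 67, 67 and 66 probes were given log2 changes of 0.5, 1 and 2. The fit recovered 70.1%, 85.1% and 100% of them, with 8.6% of calls false. In the real data 33.9% of probes were called, so these rates may not carry over. Arrays held 39376 to 39451 probes with a value, and channels summed to 41722 to 43610. Log ratios of different OVA arrays correlated at 0.702 to 0.821 across probes, and those of PBS arrays at -0.266 to 0.105. Normalization, source table, single channel, direction, dim probes, prior, replicate number and each array were varied.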

Additional observations from a re-analysis of the deposited data

Results flagged for a closer look

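Of 79 groups of values checked for a sample far from the others, 3 held one, and chance alone is set to give about 1 in 20. On OVA replicate 1 the log2 ratio of Cd74 was 0.75, and on the other OVA arrays it lay between 1.06 and 1.16. On PBS replicate 4 the log2 ratio of the dim H2-DMb1 probe was 0.29, and on the other PBS arrays it lay between -0.15 and -0.13. The dim H2-DMb2 probe (NM_010388) had a log2 intensity of -4.64 in channel 1 of PBS replicate 4 and of -4.06 on the others.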

How the results depend on the processing

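Under quantile normalised channels, median-centred ratios, loess within arrays, 0.05 added to both channels, the series' log ratios, no dimmest probes, 1 probe a gene and a trended prior, the members kept their direction and their side of the threshold where they gave a value. Some of these settings could hardly change that. Median-centring left the fit as it was, and the series' log ratios are the same ratios. No dimmest probes, 1 probe a gene and the trended prior changed only p-values. Under each of them 1 pathway gene was called lower, and likewise 1 without OVA replicate 1, where the main fit called none. The lowest and highest log2 differences over the alternatives on the ratio were 0.99 and 1.11 for Cd74, 0.77 and 0.87 for Ciita, 0.39 and 0.73 for H2-DMb1 and 0.96 and 1.04 for H2-DMa (NM_010386). Intensities to 2 decimals limit the dim probes of H2-DMb1, H2-Oa and H2-Ob.

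Leaving out 1 array in turn gave 11335 to 12691 probes over the whole table, 8 to 10 member probes and 16 to 20 pathway genes (limma, adjusted p under 0.05). It gave 7 to 8 dendritic cell, 6 monocyte and macrophage (lowest and highest 6), 5 to 6 T cell, 2 to 3 alveolar type 2 (2 lower, with 1 higher beside them without OVA replicate 2 or 5) and 1 to 2 B cell genes, with 1 B cell gene without PBS replicate 1, 3 or 4 or OVA replicate 4. Differences between chains lay from -0.61 to -0.54 for H2-Aa minus H2-Ab1, 0.30 to 0.42 for H2-DMa minus H2-DMb1, 0.21 to 0.37 for Cd74 minus H2-Aa, -0.36 to -0.15 for H2-DMb1 minus H2-DMb2 and 0.015 to 0.16 for H2-Oa minus H2-Ob. Adjusted p-values of the first 2 of these then were 0.0714 or 0.0893, or 0.0476 without OVA replicate 1, by exact permutation, since fewer arrays raise the smallest p. Cd74 minus H2-Aa passed without OVA replicate 1 (exact permutation, adjusted p = 0.0476).

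Replicates of equal number did not deviate together (r of -0.049, -0.027, -0.126 and -0.015 across probes), and the main fit did not pair arrays by number. These values cannot show whether arrays of equal number shared a day or batch. With the replicate number as a block, over replicates 1 to 4, 9146 probes, 7 member probes and 17 pathway genes passed. Calls of H2-DMa (U20311, adjusted p = 0.0988), H2-DMb1 (0.0584) and Cd22 (0.0615) were lost in that limma fit, and the cause was not tested.

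With channel 2 alone, 2 of all probes passed, with 0 member probes, 0 pathway genes and 0 genes of every marker list (limma; 1455 probes at an unadjusted p under 0.05). With channel 1 alone, 8319 probes and 0 alveolar type 2 genes passed. Against 0 on the OVA arrays alone, 4 alveolar type 2 genes passed (2 higher and 2 lower) and H2-Ob was at -0.017. Log2 differences that turned in sign with channel 2 alone were H2-DMa (NM_010386) -0.037, Cd74 (NM_001042605) -0.044, H2-Oa (AK020594) -0.053, H2-Ob (NM_010389) -0.020, H2-DMb1 (U20312) -0.045, H2-Ea -0.038, H2-Eb2 -0.26, Lgmn -0.064, Ifi30 -0.021, Rfx5 -0.18, Irf8 -0.078 and Ifng -0.13. Likewise turned were Batf3 -9.5e-04, C1qb -0.082, Mrc1 -0.025 and Thy1 -0.15.

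With channel 1 alone, as its side of the ratio implies, signs turned. There, values were H2-DMa (NM_010386) -1.03, H2-Ab1 (AK077436) -1.32, Cd74 (NM_001042605) -1.09, H2-Aa (AK002532) -0.76, Ciita (MMT00067108) -0.77, H2-Ab1 (NM_010379) -1.20, H2-DMb2 (MMT00013119) -0.89, H2-DMa (U20311) -0.069, H2-Oa (AK020594) -0.20, H2-Ob (NM_010389) -0.083, H2-DMb1 (U20312) -0.67 and H2-DMb2 (NM_010388) -0.19. Next were H2-Aa (K01923) -0.059, H2-Ea -0.99, H2-Eb2 -0.58, Ctss -1.57, Lgmn -1.61, Ifi30 -1.24, Ctsl -0.52, Rfx5 -0.76, Spi1 -0.79, Irf8 -0.68 and Ifng -1.39. The remaining values were Creb1 0.082, Itgax -2.73, Batf3 -2.74, C1qb -2.22, Mrc1 -1.99, Fcer2a -0.53, Cd22 -0.31, Thy1 -0.90 and Napsa 0.30.

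With the OVA ratios turned in sign, partner chains differed by 0.50 for H2-Aa minus H2-Ab1, -0.47 for H2-DMa minus H2-DMb1, 0.34 for H2-DMb1 minus H2-DMb2, -0.27 for H2-Oa minus H2-Ob and -0.16 for Cd74 minus H2-Aa. Single genes were H2-DMa (NM_010386) -1.04, H2-Ab1 (AK077436) -1.34, Cd74 (NM_001042605) -1.01, H2-Aa (AK002532) -0.84, Ciita (MMT00067108) -0.82, H2-Ab1 (NM_010379) -1.15, H2-DMb2 (MMT00013119) -0.90, H2-DMa (U20311) -0.16, H2-Oa (AK020594) -0.17, H2-DMb1 (U20312) -0.56, H2-DMb2 (NM_010388) -0.20 and H2-Aa (K01923) -0.35. Further, they were H2-Ea -1.04, H2-Eb2 -0.29, Ctss -1.82, Lgmn -1.64, Ifi30 -1.18, Ctsl -0.52, Rfx5 -0.67, Spi1 -0.77, Irf8 -0.62, Ifng -1.18 and Creb1 0.060. Last were Itgax -2.74, Batf3 -2.82, C1qb -2.18, Mrc1 -1.98, Fcer2a -0.67, Cd22 -0.35, Thy1 -0.73 and Napsa 0.29.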
